A study of Mus musculus with 16 samples.

Results

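The mature granule cell markers described here are 8 genes, Prox1, Tdo2, Dsp, Npnt, Trpc6, Dock10, C1ql2 and Calb1, taken as a list by gene symbol and not by a threshold on their values. Each had 1 probe set with a single gene symbol, so 8 of 8 were measured among the 21780 such probe sets on the array. Hippocampal RNA of female mice, 3 months old and from an F2 background of C57BL/6J and DBA, was hybridized to 16 Affymetrix Mouse Gene 1.0 ST arrays. The 4 groups were cbp+/- mice in environmental enrichment (CBP_EE, 3 arrays), wild-type littermates in enrichment (WT_EE, 3 arrays), cbp+/- mice in standard cages (CBP_SC, 5 arrays) and wild-type littermates in standard cages (WT_SC, 5 arrays). Each array carried a pool of RNA from 4 animals, 64 animals in all, and the labels call the pools of a group independent biological replicates. Enrichment lasted 2 weeks in a large box with wheels, tubing and toys. The comparisons ask whether enrichment, CBP deficiency or both together changed the signal of these genes.

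Granule cells are the principal neurons of the dentate gyrus. They receive the entorhinal input and send mossy fibres to CA3, and new ones are added in adult life. Prox1 is the transcription factor that specifies and maintains granule cell identity, and Calb1 encodes calbindin, a calcium buffer that granule cells acquire as they mature. CBP, the product of Crebbp, is a histone acetyltransferase and a coactivator of CREB. Some of these genes are also expressed elsewhere in the hippocampus: Prox1 in part of the interneurons, and Calb1 in CA1 pyramidal cells and interneurons. In whole hippocampus, fewer granule cells and less RNA per granule cell cannot be told apart.

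The promoters of Trpc6 and Tdo2 are shown because these 2 genes had lower signal on the cbp+/- array in nearly every same-numbered pair. The sequences are those of RefSeq on GRCm38.p6, from 250 bases before to 50 bases after the annotated start, printed on the strand of the gene. Capitals mark a match to the CRE core, TGACG, in Trpc6 and a match to the TATA box motif, TATAAA, in Tdo2.
Trpc6 (chr9:8543892-8544191, plus strand): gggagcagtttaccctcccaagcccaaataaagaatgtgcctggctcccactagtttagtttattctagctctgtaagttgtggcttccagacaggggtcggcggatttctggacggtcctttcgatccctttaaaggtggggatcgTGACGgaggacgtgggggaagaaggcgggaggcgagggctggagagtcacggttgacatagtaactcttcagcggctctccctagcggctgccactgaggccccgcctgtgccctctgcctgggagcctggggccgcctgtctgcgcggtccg
Tdo2 (chr3:81975679-81975978, minus strand): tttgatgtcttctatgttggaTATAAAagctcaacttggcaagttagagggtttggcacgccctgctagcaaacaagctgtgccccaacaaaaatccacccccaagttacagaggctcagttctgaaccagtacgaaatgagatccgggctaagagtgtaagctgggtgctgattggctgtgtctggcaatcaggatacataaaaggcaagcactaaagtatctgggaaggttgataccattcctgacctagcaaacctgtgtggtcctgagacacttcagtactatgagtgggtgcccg

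RefSeq gave 10 such windows for 7 of the 8 genes. The full CRE, TGACGTCA, occurred on either strand in 0 of these 10 windows, against 1.79% of all 32851 mouse windows searched. Its core TGACG, which is part of every full CRE, began 103 bases before the start of Trpc6 and 28 bases before one start of Npnt. That core was in 20.81% of all windows, so 2 of 10 is the share found throughout. TATAAA began 229 bases before the Tdo2 start, and on the other strand 34 bases before one start of Prox1, and 13.62% of all windows held it. The E-box CANNTG was in 6 of the 10 windows and in 72.31% of all windows. These matches describe letters in the windows and were not tested against the array values.

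The arrays fell into sets that cross the study's groups, which bears on every value that follows. Clustering by Ward linkage put replicates 1 and 2 of all 4 groups together (set 1, 8 arrays), replicate 5 of the standard cages with replicate 3 of enrichment (set 2, 4 arrays), and the replicate 3 and replicate 4 pairs of the standard cages apart (sets 3 and 4, 2 arrays each). Sets 3 and 4 therefore held no enriched mice. Same-numbered cbp+/- and wild-type arrays deviated together, so genotype differences are also given within pairs. Crebbp did not check the genotype labels: its log2 signal was 9.36 ± 0.025 in CBP_EE and 9.26 ± 0.082 in WT_EE (SD, n = 3 each), and 9.57 ± 0.22 in CBP_SC and 9.43 ± 0.18 in WT_SC (SD, n = 5 each). It was thus higher, not lower, on the arrays labelled cbp+/-, by 0.10 (SE 0.13) in enrichment and 0.14 (SE 0.099) in standard cages. Within same-numbered pairs of both housings the cbp+/- array was higher each time, by 0.01 to 0.24. What the probes read of the deficient allele is not stated in the sources used here.

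None of the 8 markers passed an adjusted p of 0.05 in any of 7 comparisons, 56 tests in all (limma, Benjamini-Hochberg over 21780 probe sets). That share was the same for all probe sets, of which 0% passed in each comparison. In cbp+/- mice, 5 of 8 markers were lower and 3 higher in enrichment than in standard cages, from -0.27 for Npnt to 0.14 for Trpc6 on the log2 scale. In wild-type mice 6 were lower and 2 higher, from -0.17 to 0.07. The median over the 8 was -0.12 in cbp+/- mice and -0.08 in wild-type mice, beside 0.01 and 0.03 for all probe sets. The 95% intervals of the 8 single differences lay between -0.62 and 0.44 in cbp+/- mice and between -0.46 and 0.37 in wild-type mice. After quantile normalization 4 of 8 were lower in enriched wild-type mice, as also with the replicate number as a block. With the Ward array sets, described above, as a block 3 were lower and 5 higher (median 0.02), so the excess of lower markers in wild-type mice rests on the setting.

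**Figure D1:**
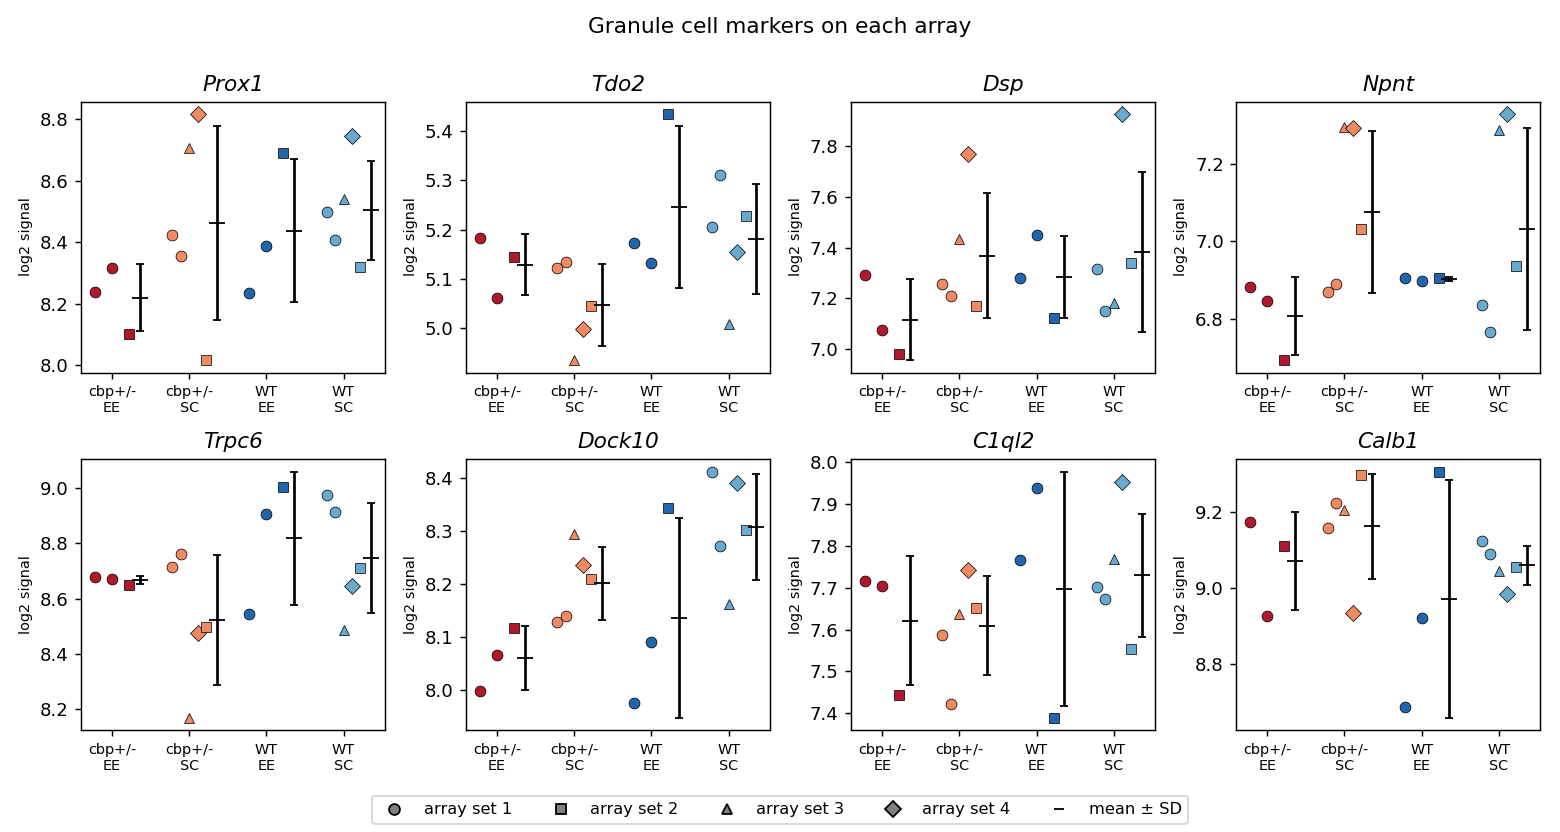
Log2 signal of the 8 markers on each of the 16 arrays, by group, with mean ± SD beside the points; the marker shape gives the array set from Ward linkage. Npnt stands at 7.29 to 7.33 on the 4 arrays of sets 3 and 4, while the 3 CBP_EE arrays of Dock10 lie below all 5 CBP_SC arrays.

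Dock10, a guanine nucleotide exchange factor that acts on dendritic spines, was the marker whose housing groups did not overlap in cbp+/- mice. Its log2 signal was 7.998, 8.07 and 8.12 in CBP_EE, against 8.13, 8.14, 8.29, 8.24 and 8.21 in CBP_SC. All 3 enriched arrays lay below all 5 standard-cage arrays, though the nearest of each were 0.01 apart. Over all probe sets, 1.25% showed every CBP_EE array below every CBP_SC array, and Dock10 was the 1 of 8 markers that did. In wild-type mice its signal was 7.97, 8.09 and 8.34 in WT_EE, against 8.41, 8.27, 8.16, 8.39 and 8.30 in WT_SC. Those groups overlapped: 2 of the 3 enriched arrays lay below every standard-cage array, and WT_EE_3 lay among them. None of the 8 markers separated the wild-type housing groups in that direction, which 2% of probe sets did.

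The difference of Dock10 was -0.14 (SE 0.078, adjusted p = 0.999, limma) in cbp+/- mice and -0.17 (SE 0.078, adjusted p = 0.264) in wild-type mice. Averaged over genotypes it was -0.16 (SE 0.055, unadjusted p = 0.013, adjusted p = 0.180), a signal 0.897 times that in standard cages. An unadjusted p under 0.05 was reached by 1 of 8 markers, Dock10, in wild-type mice and in the average. The shares of all probe sets under that p were 17.8% and 19.1%, so 1 of 8 is no more than the array as a whole. In cbp+/- mice 0 of 8 markers and 2.82% of probe sets were under it. Quantile normalization brought the average to -0.097 (adjusted p = 0.495).

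The wild-type value of Dock10 differed from one array set to the next. Among the 8 arrays of set 1 its wild-type difference was -0.31 (SE 0.069, adjusted p = 0.0151), while in set 2, with 1 array per group and no test, it was 0.04. In cbp+/- mice it was -0.10 in set 1 and -0.09 in set 2. Calb1 passed with Dock10 in set 1 in wild-type mice, at -0.30 (adjusted p = 0.0480), and was 0.25 in set 2. Within set 1, 29.9% of all probe sets passed in wild-type mice, beside 2 of 8 markers. In the average over genotypes 25.1% passed, beside 3 of 8: Dock10 at -0.21 (adjusted p = 0.0207), Calb1 at -0.22 (adjusted p = 0.0483) and C1ql2 at 0.18 (adjusted p = 0.0397). The markers that passed there did not share a direction. In set 2, without a test, the same averages were -0.03 for Dock10, 0.03 for Calb1 and -0.19 for C1ql2, so Calb1 and C1ql2 ran the other way.

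Npnt, Dsp and Prox1 had the largest housing differences in cbp+/- mice, and their highest values lay on the standard-cage arrays of sets 3 and 4. Npnt encodes nephronectin, an extracellular matrix ligand of integrins. Its log2 signal was 6.88, 6.85 and 6.69 in CBP_EE, against 6.87, 6.89, 7.30, 7.29 and 7.03 in CBP_SC. In wild-type mice it was 6.91, 6.90 and 6.91 in WT_EE, against 6.84, 6.77, 7.29, 7.33 and 6.94 in WT_SC. Replicates 3 and 4 of the standard cages thus stood together in both genotypes and above every other array. The difference was -0.27 (SE 0.14, adjusted p = 0.999) in cbp+/- mice and -0.13 (SE 0.14) in wild-type mice. Within set 1 it was -0.02 in cbp+/- mice and 0.10 in wild-type mice.

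Dsp encodes desmoplakin, a protein of desmosomes. Its signal was 7.29, 7.07 and 6.98 in CBP_EE, against 7.26, 7.21, 7.44, 7.77 and 7.17 in CBP_SC. Wild-type mice had 7.28, 7.45 and 7.12 in WT_EE, against 7.32, 7.15, 7.18, 7.93 and 7.34 in WT_SC. The replicate 4 arrays of the standard cages were the highest of both genotypes, and the other arrays of all 4 groups overlapped. Its difference was -0.25 (SE 0.17) in cbp+/- mice and -0.10 (SE 0.17) in wild-type mice, and within set 1 -0.05 in cbp+/- mice and 0.13 in wild-type mice.

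Prox1 read 8.24, 8.32 and 8.10 in CBP_EE, against 8.42, 8.35, 8.71, 8.82 and 8.02 in CBP_SC. It read 8.24, 8.39 and 8.69 in WT_EE, against 8.50, 8.41, 8.54, 8.75 and 8.32 in WT_SC. In cbp+/- mice the lowest standard-cage array, CBP_SC_5, lay below all 3 enriched arrays. The difference was -0.24 (SE 0.16) in cbp+/- mice and -0.07 (SE 0.16) in wild-type mice. Within set 1 it was -0.11 in cbp+/- mice and -0.14 in wild-type mice, and in set 2 it was 0.09 and 0.37. These housing effects were not shown to differ between genotypes, with an interaction of -0.18 for Prox1 (95% interval -0.65 to 0.30). None of the 8 markers reached an unadjusted p of 0.05 for the interaction, which 2.66% of probe sets did.

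**Figure D2:**
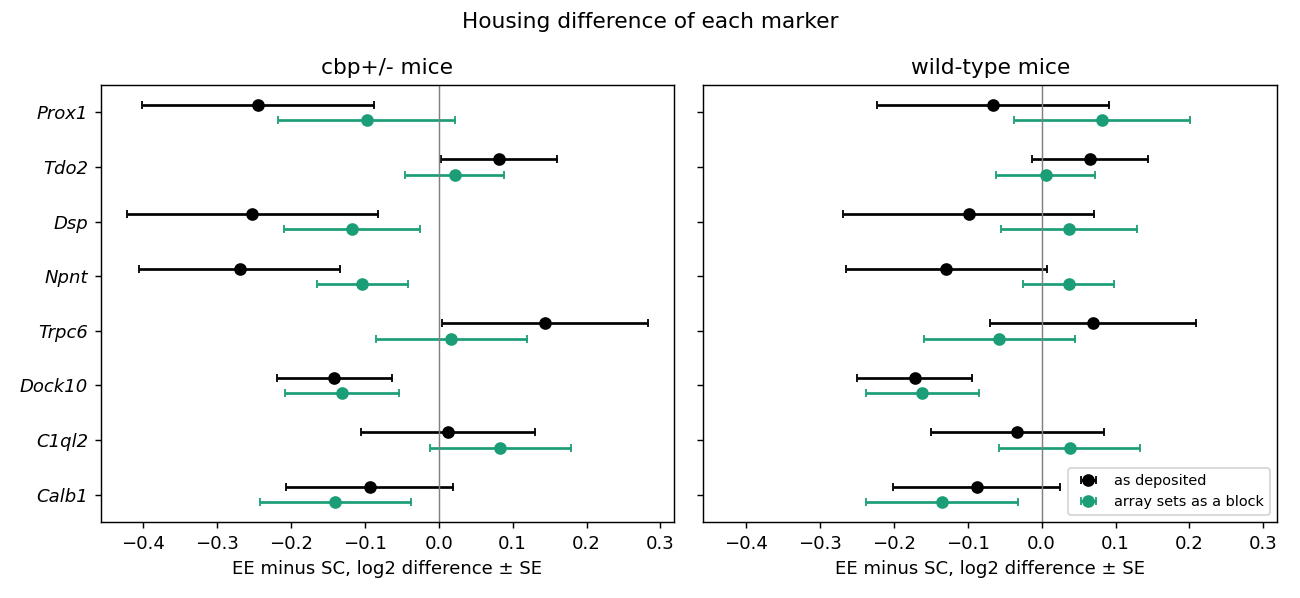
Log2 difference of enrichment minus standard cage for each marker (points, with SE as bars), from the fit on the 4 group means (black) and from a fit that also blocks on the Ward array sets, added after the data were seen (green). With that block Npnt is at -0.10 in cbp+/- mice and 0.04 in wild-type mice and Dock10 at -0.13 and -0.16; with the sets of average linkage Npnt was at -0.20 and -0.09 and Dock10 at -0.15 and -0.28.

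How much of the spread lay between array sets differed from marker to marker. Of the variance over 16 arrays, 88.0% lay between the Ward sets for Npnt, 78.1% for Dsp, 56.6% for Prox1 and 49.4% for Trpc6. It was 43.5% for C1ql2, 40.2% for Tdo2, 25.5% for Dock10 and 25.1% for Calb1, beside a median of 38.9% over all probe sets. The sets were clustered from these same arrays, so a share of this kind is partly built in. Among the 8 markers, the share held by housing was highest for Dock10, at 34.5%, beside a median of 9.2% over all probe sets. The share held by genotype was highest for Tdo2, at 29.0%, and Trpc6, at 22.02%, beside a median of 2.4%. For Tdo2 and Trpc6 the array sets held more. There are more array sets than genotypes, however, so these raw shares cannot be ranked against each other. Beside the median of 38.9% for sets, Tdo2 was close, at 40.2%, and Trpc6 higher, at 49.4%. Both genotype shares were well above their median of 2.4%.

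The markers did not move together between sets. From set 1 to set 4, Dsp averaged 7.25, 7.15, 7.31 and 7.85 and Prox1 8.36, 8.28, 8.62 and 8.78. Trpc6 averaged 8.77, 8.72, 8.33 and 8.56, so it was lowest in set 3, where Npnt and Prox1 were above their overall means. Tdo2 was also lowest in set 3, at 4.97. Markers of CA1 pyramidal cells, 6 of the 8 listed being measured, were high on the same arrays: their median deviation was 0.37 on CBP_SC_3 and 0.56 on WT_SC_3, against -0.23 to 0.21 on the other 14. All 8 choroid plexus markers were measured, and their median deviation was 1.37 on CBP_SC_3 and -0.18 to 0.15 on every other array. Other lists were also highest on CBP_SC_3 and WT_SC_3. GABAergic interneuron markers stood there at 0.24 and 0.22, and oligodendrocyte markers at 0.38 and 0.43. Further dentate granule cell genes, described below, stood at 0.28 and 0.14. What part any of these lists had in the marker values was not tested.

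**Figure D3:**
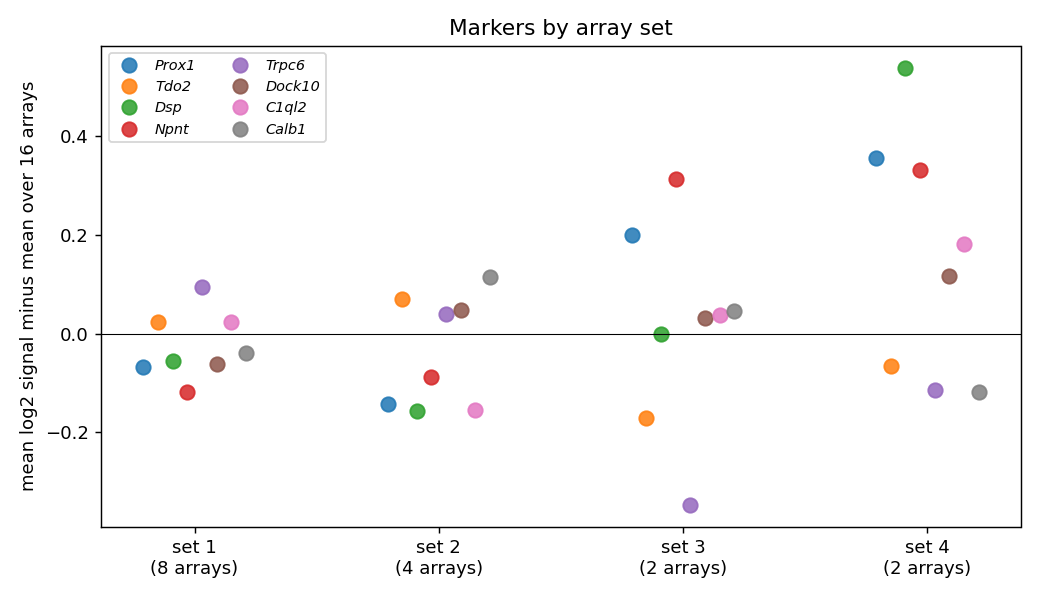
Mean log2 signal of each marker in the 4 array sets, as the deviation from its mean over 16 arrays. Npnt, Dsp and Prox1 are highest in set 4, while Trpc6 and Tdo2 are lowest in set 3; the numbers of the sets carry no order.

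Between genotypes, most markers were lower on cbp+/- arrays. In enrichment 7 of 8 were lower in CBP_EE than in WT_EE, from -0.22 for Prox1 to 0.10 for Calb1, and the lowest adjusted p was 0.937. In standard cages 6 of 8 were lower in CBP_SC than in WT_SC, from -0.22 for Trpc6 to 0.10 for Calb1, with adjusted p = 1.00 for each. The medians over the 8 were -0.11 in enrichment and -0.07 in standard cages, beside -0.02 and 0.00 for all probe sets. Single intervals ran between -0.595 and 0.37 in enrichment and between -0.48 and 0.31 in standard cages. None of the 8 markers was under an unadjusted p of 0.05 in either housing, where 5.23% and 0.987% of probe sets were.

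Trpc6 encodes a calcium-permeable cation channel of the TRPC family. Its log2 signal was 8.68, 8.67 and 8.65 in CBP_EE, against 8.54, 8.90 and 9.003 in WT_EE. In standard cages it was 8.71, 8.76, 8.17, 8.48 and 8.50 in CBP_SC, against 8.98, 8.91, 8.49, 8.65 and 8.71 in WT_SC. The groups overlapped in both housings, while within same-numbered pairs the cbp+/- array was lower in 5 of 5 standard-cage pairs and in 2 of 3 enrichment pairs. The exception was the first enrichment pair, at 0.14.

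In standard cages the difference of Trpc6 was -0.22 (SE 0.12, unadjusted p = 0.085, adjusted p = 1.00, limma), or 0.856 times the wild-type signal. With each same-numbered pair of a housing as a block, a fit added after the data were seen, its SE was 0.064 (unadjusted p = 0.0060, adjusted p = 0.855). With 1 block per number across both housings, its SE was 0.12 (unadjusted p = 0.093). That block also ties same-numbered arrays of different housing, whose deviations correlated unevenly, from -0.394 to 0.365. Averaged over housings the difference was -0.19 (SE 0.099), with an unadjusted p of 0.0053 (adjusted p = 0.269) when blocked by pair and of 0.087 when blocked by number. It was -0.21 in set 1 and -0.22 in set 2 in standard cages, and -0.05 and -0.35 in enrichment. All array-set values thus ran the same way, but the sets regroup the same pairs and add no separate check. The enrichment value of set 1 averages pairs at 0.14 and -0.23. The adjusted test was not passed.

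Tdo2 encodes tryptophan 2,3-dioxygenase, the enzyme that opens the ring of tryptophan on the kynurenine pathway. It was the dimmest marker probe set and the only one removed by a filter on dim probe sets. Its log2 signal was 5.18, 5.06 and 5.14 in CBP_EE, against 5.17, 5.13 and 5.44 in WT_EE. In standard cages it was 5.12, 5.13, 4.93, 5.00 and 5.04 in CBP_SC, against 5.21, 5.31, 5.01, 5.15 and 5.23 in WT_SC. As for Trpc6, the groups overlapped and the cbp+/- array was lower in 7 of 8 pairs, 5 of them in standard cages.

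The difference of Tdo2 was -0.13 (SE 0.068, adjusted p = 1.00) in standard cages and -0.13 (SE 0.055, unadjusted p = 0.039, adjusted p = 0.999) averaged over housings. Blocked by pair within each housing, the unadjusted p was 0.0186 in standard cages and 0.0091 on average (adjusted p = 1.00 and 0.293), while blocked by number across housings it was 0.109 and 0.071. Tdo2 was the 1 of 8 markers with an unadjusted p under 0.05 in the average, as were 3.91% of probe sets. Which marker that was depended on the normalization. After quantile normalization the average was -0.105 for Tdo2 (unadjusted p = 0.096, limma). Dock10 was then the 1 of 8 under 0.05, at -0.113 (unadjusted p = 0.031, adjusted p = 0.9997). The share of all probe sets under 0.05 in that fit was not counted. Blocked by pair, Trpc6 and Tdo2 were 2 of 8 under an unadjusted p of 0.05, beside 4.39% of probe sets in standard cages and 11.7% in the average. Blocked by number 0 of 8 were, but the share of all probe sets was not counted there, so no reading is given. The same 2 of 8 were lower in all 5 standard-cage pairs, as were 3.56% of probe sets, and lower in 7 of 8 pairs, where 5.12% were lower in 7 or more.

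**Figure D4:**
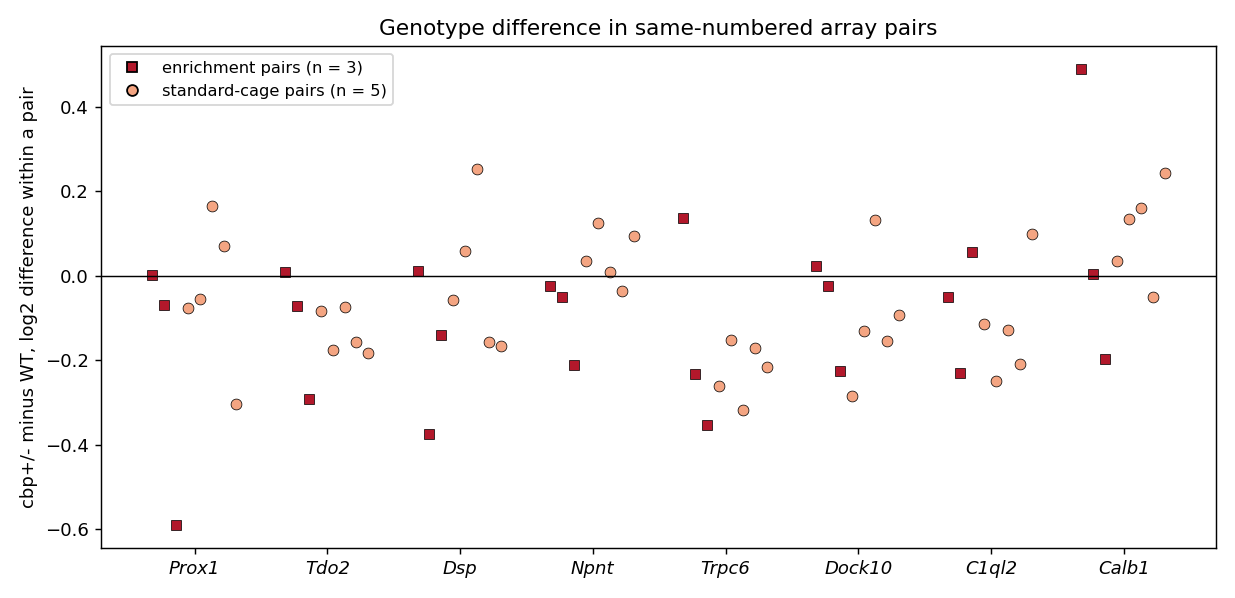
Log2 difference of cbp+/- minus wild type within each same-numbered pair of arrays, for 3 enrichment pairs (squares) and 5 standard-cage pairs (circles). All 5 standard-cage pairs lie below 0 for Trpc6 and Tdo2, while the third enrichment pair is at -0.59 for Prox1.

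The third enrichment pair set several genotype values. CBP_EE_3 minus WT_EE_3 was -0.59 for Prox1, -0.35 for Trpc6, -0.29 for Tdo2 and -0.23 for Dock10. In the first 2 enrichment pairs Prox1 differed by 0.00 and -0.07. Npnt was the 1 of 8 markers with every CBP_EE array below every WT_EE array, as were 6.85% of probe sets, at a difference of -0.10 (SE 0.14). Its 3 WT_EE arrays lay within 0.01 of one another, and CBP_EE_1 was 0.02 below the lowest of them. In standard cages 0 of 8 markers, and 0.0872% of probe sets, had every CBP_SC array below every WT_SC array.

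C1ql2 encodes a secreted C1q-like protein of mossy fibre synapses. Its log2 signal averaged 7.62 ± 0.15 in CBP_EE and 7.70 ± 0.28 in WT_EE (SD, n = 3 each), and 7.61 ± 0.12 in CBP_SC and 7.73 ± 0.15 in WT_SC (SD, n = 5 each). The genotype differences were -0.08 (95% interval -0.36 to 0.21) in enrichment and -0.12 (-0.34 to 0.10) in standard cages, with the cbp+/- array lower in 6 of 8 pairs. Housing differences were 0.01 in cbp+/- mice and -0.03 in wild-type mice. All 4 group means lay within the spread of the arrays.

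Calb1 was the only marker higher on cbp+/- arrays in both housings. It averaged 9.07 ± 0.13 in CBP_EE and 8.97 ± 0.31 in WT_EE (SD, n = 3 each), and 9.16 ± 0.14 in CBP_SC and 9.06 ± 0.052 in WT_SC (SD, n = 5 each). The genotype difference was 0.10 in both housings (95% interval -0.17 to 0.37 in enrichment and -0.11 to 0.31 in standard cages). In enrichment it rested on 1 pair, whose cbp+/- array was 0.49 above its wild-type partner, and the other pairs were at 0.00 and -0.20. Housing differences of Calb1 were -0.09 in each genotype.

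For the other markers the group means ordered as follows. Dock10 averaged 8.06 ± 0.060 in CBP_EE and 8.14 ± 0.19 in WT_EE (n = 3 each), and 8.20 ± 0.069 in CBP_SC and 8.31 ± 0.10 in WT_SC (n = 5 each), the order from lowest to highest. Trpc6 averaged 8.67 ± 0.015 in CBP_EE, 8.82 ± 0.24 in WT_EE, 8.52 ± 0.24 in CBP_SC and 8.75 ± 0.20 in WT_SC, lowest in CBP_SC and highest in WT_EE. Tdo2 had the same lowest and highest group, at 5.05 ± 0.084 in CBP_SC and 5.25 ± 0.16 in WT_EE. Prox1, Dsp and Npnt were lowest in CBP_EE, at 8.22 ± 0.11, 7.12 ± 0.16 and 6.81 ± 0.10. Neighbouring groups in these orders overlapped array by array, apart from CBP_EE and WT_EE for Npnt.

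A further list of 22 genes known from dentate granule cells, 21 of them measured, was read for the same comparisons. None of the 21 passed the adjusted test in any comparison. In cbp+/- mice 18 were lower and 3 higher in enrichment than in standard cages, with a median of -0.11. In wild-type mice 13 were lower and 8 higher, with a median of -0.05. The medians of all probe sets were 0.01 in cbp+/- mice and 0.03 in wild-type mice. After quantile normalization the wild-type median was 0.02, with 10 lower and 11 higher. Once the fit blocked on the Ward array sets, the medians were -0.02 in cbp+/- mice and -0.01 in wild-type mice. The medians between genotypes were -0.05 in enrichment and -0.02 in standard cages, beside -0.02 and 0.00 for all probe sets.

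The smallest unadjusted p values in that list for housing, averaged over genotypes, belonged to Rasgrf2, Tiam1, Sema5a and Cyp7b1. Of the 21 genes, 3 were under an unadjusted p of 0.05 in that average (limma), beside 19.1% of all probe sets. Rasgrf2, an exchange factor for Ras, was at -0.23 (SE 0.13) in cbp+/- mice and -0.41 (SE 0.13, adjusted p = 0.156) in wild-type mice. Tiam1, an exchange factor for Rac, was at -0.44 (SE 0.22) in cbp+/- mice and -0.47 (SE 0.22, adjusted p = 0.292) in wild-type mice. Both were thus lower in enrichment in both genotypes by more than their SE, without passing the test. Sema5a, a transmembrane semaphorin, was at -0.29 (SE 0.17) in cbp+/- mice and -0.25 (SE 0.17) in wild-type mice. Cyp7b1, an oxysterol hydroxylase, was higher in enrichment, at 0.14 (SE 0.17) in cbp+/- mice and 0.26 (SE 0.17) in wild-type mice.

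**Figure D5:**
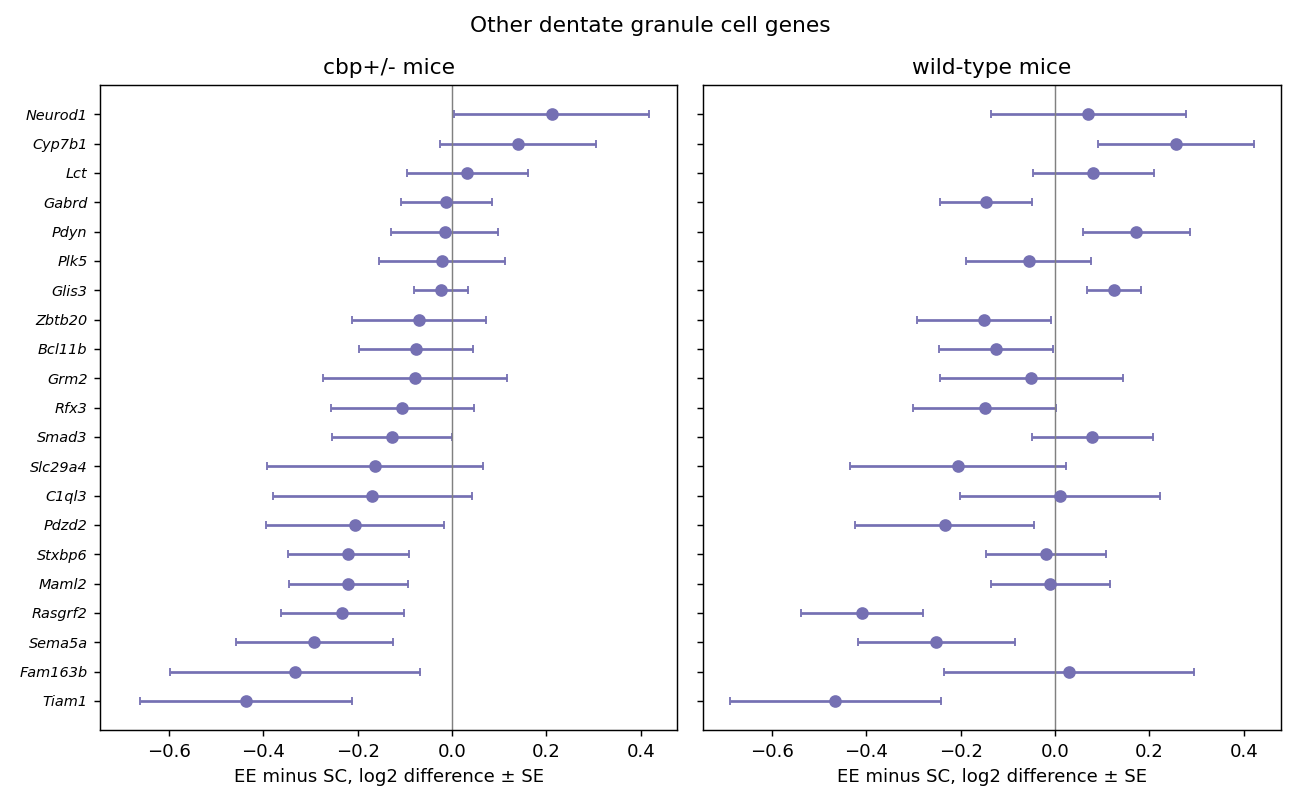
Log2 difference of enrichment minus standard cage (points, with SE as bars) for 21 further dentate granule cell genes, ordered by the difference in cbp+/- mice. In cbp+/- mice 18 of 21 points lie below 0, and in wild-type mice 13 of 21.

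Of the markers of immature granule neurons, 9 of 10 were lower in CBP_EE than in CBP_SC (median -0.06). In wild-type mice 7 of 10 were lower in WT_EE than in WT_SC (median -0.04). The medians of all probe sets were 0.01 and 0.03. After quantile normalization 8 of 10 were lower in each genotype (medians -0.07 in cbp+/- and -0.04 in wild-type mice). With the Ward array sets as a block 8 of 10 were lower in cbp+/- mice and 7 of 10 in wild-type mice (medians -0.05 and -0.01). Between genotypes 8 of 10 were lower in each housing, with medians of -0.10 in enrichment and -0.09 in standard cages, and none passed the adjusted test. Choroid plexus markers were lower in CBP_EE than in CBP_SC in 8 of 8 (median -0.34), the comparison in which the high array CBP_SC_3 takes part. Pyramidal markers of CA3 were lower in WT_EE than in WT_SC in 8 of 8 (median -0.09), and oligodendrocyte markers in 5 of 5 measured of 6 listed (median -0.18). The median deviation of the oligodendrocyte markers was lowest on WT_EE_3, at -0.61, and highest on WT_SC_3, at 0.43, and CBP_SC_3, at 0.38. Their part in the marker values was not tested either.

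The genes most like the median deviation of the 8 markers, once array-set means were removed, were Qsox2, Dixdc1, Necab2, Evi5l and Amer3. That median is not a pattern shared by all 8 markers. Of these, Necab2 was itself on the list of CA2 pyramidal markers read for these arrays. Likeness was Pearson's r with the median deviation of the 8 markers, after the mean of each average-linkage array set was subtracted, over 8292 genes with a mean log2 signal above 7. The values were 0.96, 0.95, 0.92, 0.91 and 0.91. These arrays share sets and scaling, WT_EE_3 is a set of its own there and contributes 0, and the values describe these arrays only.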

How the data were processed

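The authors deposited linear intensities, 1 per probe set and array, for 16 arrays; the labels' protocols name GeneSpring GX and the submitters' processing notes name RMA. Scale was read from the values; no source used here gives versions, a genome build or any centring on a baseline. Array medians of the tested probe sets lay between 93.52 and 100.05. The interquartile range of their log2 signal ran from 2.22 to 2.65. It was 2.22, 2.37 and 2.37 in WT_EE, against 2.58, 2.55, 2.51, 2.49 and 2.49 in WT_SC. In cbp+/- mice it was 2.43, 2.37 and 2.53 in CBP_EE, against 2.49, 2.47, 2.65, 2.48 and 2.54 in CBP_SC. In wild-type mice this spread thus differed with housing, and its part in the marker differences was not tested. RMA gives no detection call, and precision is limited by how many arrays there are. Of 28815 probe sets, 21780 had exactly 1 symbol in the platform annotation and were tested, and 1605 had several. All 8 markers matched RefSeq (GRCm38.p6) by gene number.

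Log2 values were fitted with limma 3.58.1 in R 4.3.3 as 4 group means over 16 arrays (12 residual degrees of freedom), moderated by eBayes and adjusted by Benjamini-Hochberg over 21780 probe sets, at a threshold of 0.05. The code was tested on simulated data. Groups and replicate numbers came from the titles. The labels give genotypes shared replicate numbers without saying what a number stands for. Deviations of same-numbered cbp+/- and wild-type arrays correlated in all 8 pairs, at 0.257 to 0.767, so the numbers were taken to pair genotypes. In 2 of the 8, though, a differently numbered array correlated more highly. Across housings, same-numbered cbp+/- arrays correlated at 0.365, 0.288 and -0.043, and wild-type arrays at -0.265, -0.012 and -0.394. Array sets were cut at 4 from average linkage and, added after seeing the data, Ward linkage.

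Alternatives were quantile normalization, a filter on the dimmest 40% of probe sets, replicate and array-set blocks, array weights, fits within 1 set and leaving out each array. The genes named are the markers, Crebbp, up to 4 genes with the smallest p in a list, and the 5 genes most like the markers' median deviation. The markers and lists were chosen with earlier results of these data known. Correlations among the 8 markers are not given, because arrays of 1 set deviate together and are not independent.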

Additional observations from a re-analysis of the deposited data

Results flagged for a closer look

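Dsp on WT_SC_4 stood far from the other wild-type standard-cage arrays: its log2 signal was 7.93, with 7.34 the next highest of the 5, a gap beyond Dixon's 95% limit for 5 values. The same-numbered cbp+/- array, CBP_SC_4, was also the highest of its group, at 7.77. Chance flags about 5% of groups, and 16 groups of 5 arrays were looked at over the 8 markers.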

How the results depend on the processing

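The alternatives were read for 37 of the marker differences given in the text. Of 331 values other than those leaving out 1 array, 34 turned direction and 9 passed the threshold. Some of both came from fits within set 1 of Ward linkage, which holds 8 of the 16 arrays. The housing averages of Calb1 and C1ql2, which also passed within that set, were not among the 37. With 1 array left out, 26 of 592 values turned direction and 0 passed. The cause was not tested. Effects of the size seen here are close to the spread of 3 to 5 arrays, which limits what can be told apart, and no scanner files were used, so signal over background is unknown. The array sets were clustered from the values tested, so p values from blocks or fits built on them are not independent of the sets.

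Counts of probe sets past the threshold, 0 as reported in every comparison, moved with array weights to 1039 for housing in cbp+/- mice, 5254 for housing in wild-type mice, 2474 for genotype in enrichment, 429 for the interaction, 152 for the genotype average and 6167 for the housing average. Markers past it were then 1 (Dock10), 1 (Dock10), 1 (Calb1, 0.23) and, in the housing average, 2. The average-linkage block gave 1 probe set in each housing comparison, and the Ward block 15 in wild-type mice, 15 in the housing average and 1 in the genotype average. Within set 1 of average linkage 1871 probe sets and 1 marker (Dock10, -0.33) passed in wild-type mice, and 1941 and 1 in the housing average. Within set 1 of Ward linkage these were 6513 and 2 in wild-type mice, and 5470 and 3 in the housing average. The replicate block, whose same-numbered arrays of different housing correlated unevenly, gave 326 probe sets in the housing average. With the block by number, or by pair within each housing, no other call changed, and by pair none with quantile normalization either. With 1 array left out the counts ran from 0 to 19 in wild-type mice (3 without CBP_SC_3, 7 without CBP_EE_2, 19 without CBP_EE_3) and from 0 to 230 in the housing average (1 without WT_EE_2, 230 without CBP_EE_3).

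Housing in wild-type mice turned most often. Quantile normalization gave 0.022 for Prox1, -0.022 for Tdo2, 0.059 for C1ql2 and 0.0011 for Calb1, and the replicate block 0.019 for Dsp and 0.0048 for C1ql2. The average-linkage block gave -0.066 for Tdo2, -0.13 for Trpc6 and 0.096 for C1ql2; array weights -0.089 for Tdo2, 0.13 for Dsp and 0.20 for C1ql2. Within set 1 of average linkage they were -0.071 for Tdo2, -0.12 for Trpc6 and 0.075 for C1ql2. The Ward block gave 0.081 for Prox1, 0.037 for Dsp, 0.037 for Npnt, -0.057 for Trpc6 and 0.038 for C1ql2. Within set 1 of Ward linkage they were -0.11 for Tdo2, 0.13 for Dsp, 0.10 for Npnt, -0.22 for Trpc6 and 0.16 for C1ql2. There, housing in cbp+/- mice was -0.0068 for Tdo2 and -0.062 for Trpc6, genotype in standard cages 0.00019 for Dsp, and the interaction 0.032 for Prox1. The average-linkage block gave 0.012 for Prox1 and 0.021 for Dock10 for genotype in enrichment, and 0.052 for the interaction of Prox1. Array weights gave 0.023 for Tdo2 for genotype in enrichment and -0.023 for the interaction of Trpc6.

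With 1 array left out, housing in wild-type mice ran from -0.18 to 0.037 for Dsp, -0.15 to 0.12 for C1ql2, -0.19 to 0.035 for Prox1, -0.26 to 0.055 for Calb1, -0.029 to 0.12 for Tdo2 and -0.023 to 0.21 for Trpc6. Housing in cbp+/- mice ran from -0.034 to 0.10 for C1ql2. Genotype in standard cages ran from -0.022 to 0.12 for Npnt, -0.13 to 0.072 for Prox1 and -0.11 to 0.12 for Dsp, and in enrichment from -0.044 to 0.27 for Calb1, -0.23 to 0.044 for C1ql2 and -0.16 to 0.028 for Dock10. The interaction of Trpc6 ran from -0.063 to 0.17. Dock10 stayed negative in both housing comparisons, from -0.17 to -0.11 in cbp+/- mice and from -0.28 to -0.09 in wild-type mice, and Trpc6 in the standard-cage genotype comparison, from -0.29 to -0.14.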
